A study of Homo sapiens with 3 samples.

Results

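Shared RUNX2-CBFB peaks inside gene bodies were RUNX2 peaks that overlapped with a CBFB peak by at least 1 bp, and whose midpoint lay inside an annotated gene and over 5 kb from every annotated transcription start site (TSS). There were 3216 such peaks on chromosomes 1 to 22 and X, out of 9941 RUNX2 peaks in all. They were chosen by the peak calls themselves. Of the 9941 RUNX2 peaks, 9365 overlapped with a CBFB peak (94.2%), so that overlap by this rule described nearly the whole list. The CBFB list was longer, with 27246 peaks, and the share depends on its size and on the limit of 1 bp. The paper reported a smaller overlapping share for the same number of RUNX2 peaks. Its overlap rule was not given in the sources used here, and the reason for the gap was not tested. The 3216 peaks were 34.4% (95% interval 33.4 to 35.4) of the 9354 shared peaks on these chromosomes. Another 4263 shared peaks lay within 5 kb of a TSS and 1875 lay between genes.

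SAOS2 cells, which are p53-deficient human osteosarcoma cells, were used for ChIP-seq, the sequencing of DNA pulled down from chromatin with an antibody. The cells were untreated and at fewer than 20 passages. The series held 3 samples, which were 1 RUNX2 ChIP made with a custom antibody, 1 CBFB ChIP made with an antibody from Bethyl, and 1 input DNA sample that was not used here. Peak lists hold no expression values, so the cell line could not be checked against its marker genes. Each antibody had 1 library. No p-value was therefore computed, and the 95% intervals (exact Clopper-Pearson for shares, exact Poisson for counts per Mb, Newcombe for differences of shares) cover counting error only. Read depth is unknown.

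RUNX2 is the transcription factor that drives osteoblast differentiation, and it binds DNA through its Runt domain. CBFB does not touch DNA itself. It binds the Runt domain and makes its hold on DNA stronger, and it serves RUNX1 and RUNX3 in the same way. Many binding sites of such factors lie in introns, where enhancers are common.

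As examples, 60 bp around the RUNX core nearest the midpoint are given for peaks in genes of the RUNX pathway, bone biology and adhesion. All were picked from peaks with a core within 100 bp of the midpoint, which 52.1% of the 3216 peaks had. Capitals mark the core, TGTGGT, which is the short sequence that the Runt domain reads. Each is written 5′ to 3′ on the strand that carries the core, with hg19 coordinates.
RUNX2, intron 6, chr6:45587816-45587875, forward strand: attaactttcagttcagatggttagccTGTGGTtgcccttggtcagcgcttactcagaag
RUNX3, chr1:25241097-25241156, forward strand: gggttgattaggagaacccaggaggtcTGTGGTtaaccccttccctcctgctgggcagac
LEF1, chr4:108972572-108972631, reverse strand: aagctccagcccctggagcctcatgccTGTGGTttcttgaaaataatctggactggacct
FN1, chr2:216266821-216266880, reverse strand: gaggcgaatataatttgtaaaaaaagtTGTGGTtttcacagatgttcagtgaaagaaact
BMP6, chr6:7758976-7759035, reverse strand: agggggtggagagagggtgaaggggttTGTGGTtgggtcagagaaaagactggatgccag
IGF1R, chr15:99320196-99320255, forward strand: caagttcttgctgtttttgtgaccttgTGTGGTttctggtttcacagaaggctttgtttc
DOCK4, chr7:111559973-111560032, reverse strand: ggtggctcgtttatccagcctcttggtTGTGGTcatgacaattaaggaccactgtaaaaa
SLC2A12, chr6:134324190-134324249, reverse strand: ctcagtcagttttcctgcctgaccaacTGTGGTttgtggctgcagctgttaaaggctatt

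The first question was whether peaks deep in genes carry the DNA sequence that RUNX proteins bind. The RUNX core, TGTGGT or its complement, lay within 100 bp of the midpoint in 1677 of the 3216 peaks, or 52.1% (50.4 to 53.9). Windows of the same size placed 2 kb to either side, clear of any peak, held it in 13.3% (12.4 to 14.2), and it was found in 13.6% of all 201 bp windows of the gene sequence over 5 kb from a TSS, which is called eligible sequence here. Shared peaks near a TSS held the core in 35.0% (33.6 to 36.5), which was 17.1 points lower (interval of the difference 14.9 to 19.4). Shared peaks between genes held it in 938 of 1875 cases (47.7% to 52.3%), and the difference of 2.12 points had an interval of -0.727 to 4.96. Shared peaks in gene bodies thus carried the core more often than those at start sites, and a difference from those between genes was not detectable. The size of the gap to start sites depended on the letters searched. With C also allowed at base 3 of the core, gene-body peaks held it in 58.8% (57.0 to 60.5). TSS peaks then held it in 49.0% (47.5 to 50.5), a smaller gap of 9.77 points.

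The longer site TGTGGTT was found in 28.6% of the gene-body peaks and in 3.58% of their flanks, a ratio of 7.99. In the 1701 peaks with a core centred within 100 bp of the midpoint, the base that followed the nearest core was T in 47.9% (45.5 to 50.3) and A in 11.1%. The base after that was T in 37.4% and A in 35.1%. Before the core, C was found in 37.8% and G in 13.0%. The sequences of LEF1 and FN1 above continue with T after the core, and that of RUNX3 with T and then A.

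Cores did not lie evenly around the midpoint. The highest density, 5.12 cores per kb, was found 50 to 100 bp on the side of lower coordinates, against 1.74 at the same distance on the other side. In total, 2746 cores lay in the 200 bp below the midpoint and 1152 in the 200 bp above it. The side did not follow the direction of the host gene, since genes on the forward strand had 1387 cores below and 620 above, and genes on the reverse strand had 1359 and 532. The same side was favoured in shared peaks near a TSS (2390 and 1093) and between genes (1598 and 649). Around the midpoints of the paired CBFB peaks, the share with a core was also highest 75 bp below, at 53.6% against 49.2% at the CBFB midpoint. With a window centred 75 bp below the RUNX2 midpoint, a point chosen after the values were seen because it gave the most, 61.5% (59.8 to 63.2) of the gene-body peaks held a core, against 13.5% of flanks displaced in the same way. The share at the midpoint is therefore the lower of these values, and the peak midpoints in the deposited lists stood above the cores on average.

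**Figure D1:**
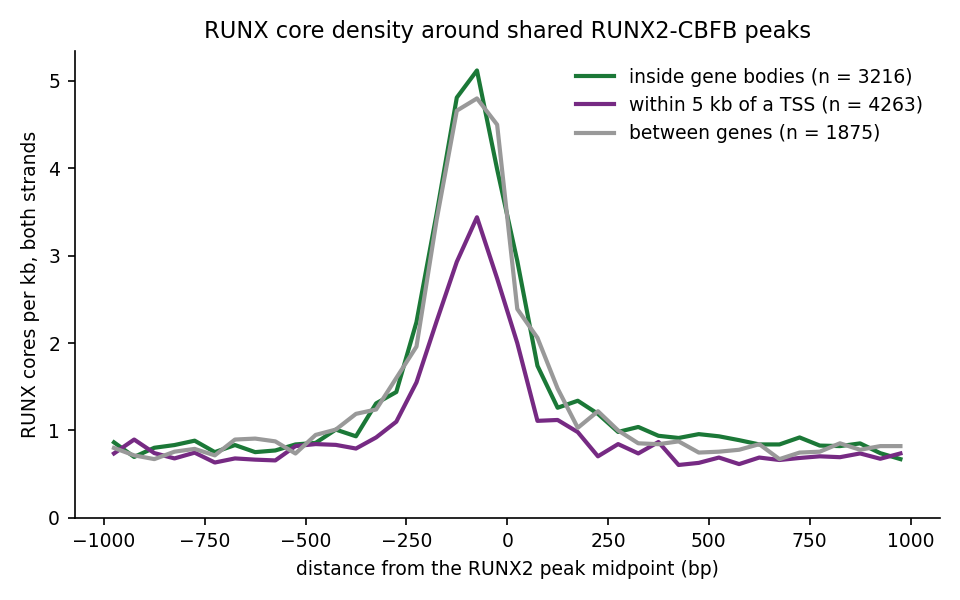
RUNX cores per kb of sequence on either strand (y axis) in 50 bp steps from the RUNX2 peak midpoint (x axis, bp, lower coordinates to the left), for shared peaks inside gene bodies (n = 3216), within 5 kb of a TSS (n = 4263) and between genes (n = 1875). The curve for gene bodies reaches 5.12 at 50 to 100 bp below the midpoint, where the curve for TSS peaks reaches 3.44.

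Other motifs separated the gene-body peaks from those at start sites. The AP-1 site TGANTCA, bound by FOS and JUN proteins, was found in 15.3% (14.1 to 16.6) of the gene-body peaks, 5.81% of their flanks and 10.4% of the TSS peaks. The TEAD site GGAATG, the end point of Hippo signalling, was found in 17.2%, against 10.1% of flanks and 13.9% of TSS peaks. The GC box GGGCGG, a common promoter element, was found in 4.94% of the gene-body peaks and 23.8% of the TSS peaks. The ETS site CCGGAAG was found in 0.902% and 5.28%. For each of these 4 motifs, the difference from peaks between genes had an interval that included 0. The AP-1 site was about as frequent in gene-body peaks with a core near the midpoint (15.7%, 14.0 to 17.5) as in those without (14.9%, 13.1 to 16.8). Of the gene-body peaks, 34.0% held no RUNX core, AP-1 site or TEAD site within 100 bp. A RUNX core lay somewhere in the peak in 87.3% (86.1 to 88.4), against 51.1% (49.8 to 52.4) of stretches of the same length 5 kb away and clear of any peak. Mean GC content was 46.9% in the windows and 40.0% over all windows of eligible sequence, and the shares were not corrected for it.

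Median scores differed little between positions in the genome. The deposited score was read as the MACS peak score, which grows as the p-value of the peak falls, and both lists began at 50. Gene-body peaks had a median RUNX2 score of 85.2 (quartiles 63.2 and 129), TSS peaks 86.8 and peaks between genes 89.9. Of the gene-body peaks, 20.0% (18.7 to 21.5) were in the top 20% of the whole RUNX2 list, compared with 21.1% and 23.0%. The median did not fall with distance from a TSS. It was 84.1 at 5 to 10 kb, 85.7 at 10 to 20 kb, 85.4 at 20 to 50 kb, 83.8 at 50 to 100 kb and 87.1 at 100 to 200 kb. Median width was 937 bp. All of these values describe the calls that chose the peaks, and no test was made on them.

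**Figure D2:**
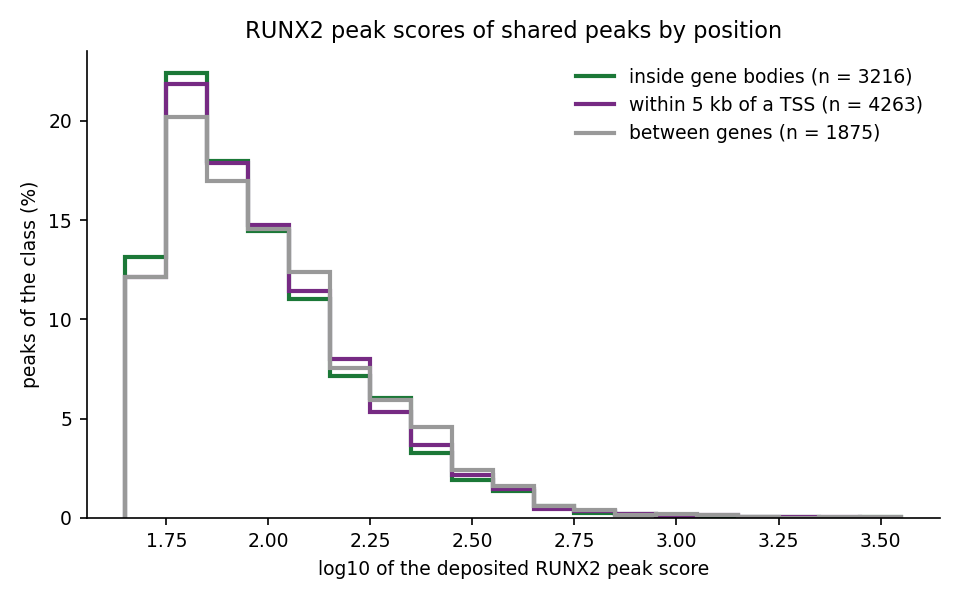
Share of peaks (y axis, percent of the class) by log10 of the deposited RUNX2 score (x axis) for shared peaks inside gene bodies, within 5 kb of a TSS and between genes. The 3 curves lie nearly on each other, with medians of 85.2, 86.8 and 89.9.

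A rise of the core with the score was not detectable. When the gene-body peaks were divided into 5 groups by score, the core was found near the midpoint in 50.6% (46.7 to 54.5) of the lowest group and 54.7% (50.8 to 58.6) of the highest. With the displaced window the values were 63.4% and 60.8%. The groups had median scores of 54.7 and 204.

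The paired CBFB peaks were wider than the RUNX2 peaks, with a median of 1323 bp. Since overlap chose the pairs, their fit is given as a description only. The CBFB peak contained the whole RUNX2 peak in 83.8% (82.5 to 85.1) of cases, compared with 81.1% of TSS peaks and 83.4% between genes. The midpoints were a median of 88.0 bp apart, against 106 and 86.0 bp. RUNX2 scores and those of the paired CBFB peaks had a Spearman correlation of 0.618 over the 3216 peaks, compared with 0.570 for TSS peaks and 0.653 between genes. Scores also rose with peak width (Spearman correlation 0.515 for RUNX2), and these correlations describe 1 library each. Before selection on overlap, 3390 RUNX2 peaks met the position rule, and 94.9% (94.1 to 95.6) of them overlapped with a CBFB peak. Conversely, 33.8% of the 9371 CBFB peaks at such positions overlapped with a RUNX2 peak.

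The highest scores stood apart in sequence. Of the 10 gene-body peaks with the highest scores, 8 were rich in repeats, with 20% or more of their 12-base words present more than once in the peak. Only 45 of all 3216 peaks (1.02% to 1.87%) reached this limit, which was set after the sequences were seen. TSS peaks were alike, with 6 of the top 10 and 1.22% of all. The top gene-body peak, in intron 2 of BAHCC1 (chr17:79397946-79400327), had a RUNX2 score of 3100 and a CBFB score of 3100, and held 69 copies of the core in 2382 bp. The highest RUNX2 score between genes was also 3100. CBFB partners of the peaks in ENSG00000231698, YBEY and TMEM255B had 3100 as well. Whether 3100 is an upper limit of the score was not tested, so equal values of 3100 need not mean equal signal. BAHCC1 encodes a chromatin protein with a BAH domain. A peak in intron 8 of TMEM255B had a score of 1210.5 and held 27 copies. A peak in an intron of the lncRNA gene ENSG00000231698 had a score of 1809.83 and held 13 copies. Peaks in YBEY (1428.85) and in the lncRNA gene ENSG00000290937 (1092.19) held none. Stretches of 60 bp around the core nearest the midpoint show the repeated units, with the core in capitals.
BAHCC1, chr17:79399114-79399173, forward strand: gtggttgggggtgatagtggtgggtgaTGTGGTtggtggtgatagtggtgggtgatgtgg
ENSG00000231698, chr11:131212428-131212487, reverse strand: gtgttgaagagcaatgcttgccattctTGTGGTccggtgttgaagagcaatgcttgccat
TMEM255B, chr13:114512067-114512126, forward strand: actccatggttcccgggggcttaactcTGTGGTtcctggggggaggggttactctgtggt

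SLC2A12, which encodes a glucose transporter, was the exception among the top 10. Its peak in intron 3 (chr6:134323668-134324772) had a RUNX2 score of 806.39 and a CBFB score of 2505.52, held no repeated 12-base word, and had a single core 0.5 bp from the midpoint. Its sequence is given above. The other peak below the limit lay in the lncRNA gene LINC00662 (score 835.73, 15.3% repeated words). The rest of the top 10 lay in MAD1L1 (896.47), which acts in the spindle checkpoint, in LINC01237 (801.35) and again in LINC00662 (798.88). Without the 45 repeat-rich peaks, the share with a core near the midpoint was 52.1% and the median score 85.0, so these few peaks set neither value.

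The limit of 5 kb fell between peaks only a few bp apart in distance. The 3 peaks just inside, 5010 to 5017 bp from a TSS in LINC03016, CAPN2 and MAGEA3-DT, had RUNX2 scores of 65.95, 51.21 and 144.3. The 3 shared peaks just outside, 4987 to 4990 bp from a TSS at SMCO4, MAP4 and MB, had scores of 176.73, 143.49 and 413.43.

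Peaks lay in introns about as often as the sequence itself. The midpoint lay in an intron in 3071 peaks (95.5%, 94.7 to 96.2), and introns made up 95.9% of the 1171 Mb of eligible sequence. Coding exons held 30 peaks (0.933%, against 0.997% of the bases), UTRs 63 (1.96%, against 1.84%) and other exons 52 (1.62%, against 1.26%). Each base share lay within the interval of the peak share. A protein-coding gene held 2454 peaks (76.3%), and 739 (23.0%) lay in a lncRNA gene only. The median distance from the nearest TSS was 15.6 kb, with quartiles of 8.96 and 29.6 kb and a maximum of 497 kb.

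Within genes, first introns held more peaks than their length would give. A single transcript was taken for each protein-coding gene, whether or not it held a peak. This choice was added after the results were seen, and a peak inside several coding genes could be counted in each. First introns held 659 of 2260 intronic peaks counted in this way, or 29.2% (27.3 to 31.1), and 23.7% of the eligible intron bases. Introns from the sixth on held 28.5% (26.7 to 30.5) of the peaks and 34.3% of the bases. In density, this was 3.59 peaks per Mb (3.32 to 3.87) in first introns, 3.28 in second introns, and 2.43 (2.24 to 2.62) from the sixth intron on. Last introns were counted only in transcripts chosen for holding a peak. In those with 2 or more introns, they held 376 of 3024 intronic peaks (12.4%, 11.3 to 13.7). They made up 9.37% of the eligible intron bases of all chosen transcripts. First introns of these chosen transcripts, the choice set out at the start, held 30.5% of the intronic peaks and 24.0% of the bases. Peaks in first introns had a median score of 82.7 and a core share of 51.4%, and those in later introns 86.2 and 52.4%.

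Density also varied with distance from the start of the gene. Here too, a peak inside several coding genes could be counted in each. Over all protein-coding genes, density was 2.95 peaks per Mb (2.43 to 3.55) at 5 to 10 kb from the transcript start, 3.54 (3.24 to 3.85) at 20 to 50 kb and 3.10 at 100 to 200 kb. Beyond 200 kb it was 2.17 (1.99 to 2.36), but in genes of 200 to 400 kb it was 2.98 (2.50 to 3.52) there. In genes of 400 kb or more, it was 1.98 (1.79 to 2.19) beyond 200 kb, and the interval at 20 to 50 kb was 1.14 to 2.70.

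**Figure D3:**
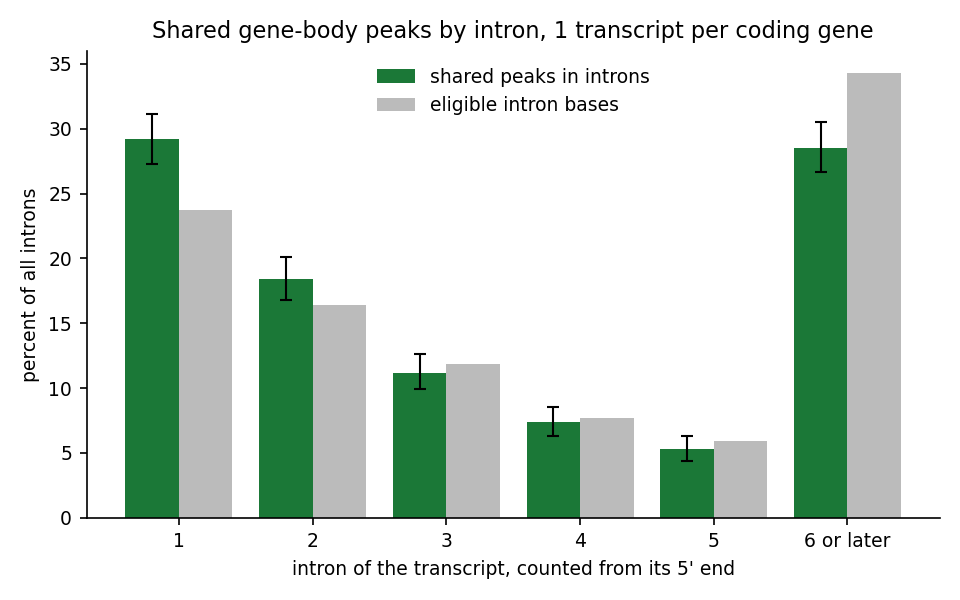
Share of intronic shared peaks (green bars, percent, with 95% intervals) and of eligible intron bases (grey bars, percent) by intron number from the 5′ end, with 1 transcript for each protein-coding gene. A peak inside several coding genes could be counted in each. First introns hold 29.2% of the peaks and 23.7% of the bases, and introns from the sixth on 28.5% and 34.3%.

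The peaks were spread over many host genes. Of 13858 protein-coding genes with eligible sequence, 1532 held at least 1 peak (11.1%). Their median length was 150 kb, against 43.2 kb for genes without one, and the share of genes with a peak rose from 1.13% below 25 kb to 48.6% (44.2 to 53.1) at 400 kb or more. Peaks per Mb did not rise in this way, with 2.31 below 25 kb, 3.59 (3.32 to 3.87) at 100 to 200 kb and 2.17 (2.01 to 2.35) at 400 kb or more. Most host genes (1012, or 66.1%) held a single peak, 286 held 2, and 28 held 6 or more. Neighbouring peaks in a gene were a median of 35.0 kb apart, and 24.2% of 1248 such pairs were within 10 kb. Peaks that were alone in their host had a median score of 82.1 and a core share of 55.0% (51.8 to 58.2), and those in hosts with 4 or more had 89.7 and 48.7% (44.8 to 52.7).

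Host genes also had shared peaks at their start sites more often than other genes. A shared peak within 5 kb of a TSS of the gene was found for 495 of the 1532 host genes (32.3%, 30.0 to 34.7) and 1858 of the 12326 genes without a gene-body peak (15.1%, 14.4 to 15.7). Long genes had a wider gap, with 39.3% (34.0 to 44.8) against 12.1% (9.67 to 14.8) at 200 to 400 kb. Genes below 25 kb had 9.76% (2.72 to 23.1) against 12.1%, so that no difference was detectable there. Host genes had more annotated start sites, a median of 8 against 6, and its part in the gap was not tested.

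The RUNX genes themselves were hosts. RUNX1, the family member best known from blood formation, held 18 peaks, and no gene held more. In RUNX1 (chr21:36160098-37376965, reverse strand), RUNX2 scores ran from 50.64 to 276.94 with a median of 85.5, and density was 17.1 peaks per Mb (10.2 to 27.1). The peaks were scattered from 8.78 to 1197 kb from the annotated start of the gene. RUNX2 (chr6:45295894-45632086, forward strand) held 6 peaks with RUNX2 scores of 138.51, 59.97, 86.44, 140.79, 173.59 and 100.53. The paired CBFB peaks had scores of 333.82, 60.15, 232.23, 547.24, 387.52 and 397.01. The first 3 lay in intron 4 and the last 3 in intron 6 of the transcript used, and 1 of the 6 had a core within 100 bp of the midpoint. That core, 93.5 bp away, is the one shown above. RUNX3 held 3 peaks, with scores of 407.93, 177.21 and 86.33. CBFB, on the other hand, held none.

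TLE4, a Groucho corepressor that RUNX proteins recruit, held 5 peaks with scores of 186.38, 191.51, 296.98, 190.12 and 52.36, and 4 of them had a core near the midpoint. TLE1 and TLE3 held none, and neither did CBFA2T2, CBFA2T3 and RUNX1T1, the ETO corepressors. Together, 4 of 10 genes in this list held 32 peaks, or 17.4 per Mb (11.9 to 24.5), compared with 2.94 over all protein-coding genes. RUNX1 alone gave 18 of the 32.

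**Figure D4:**
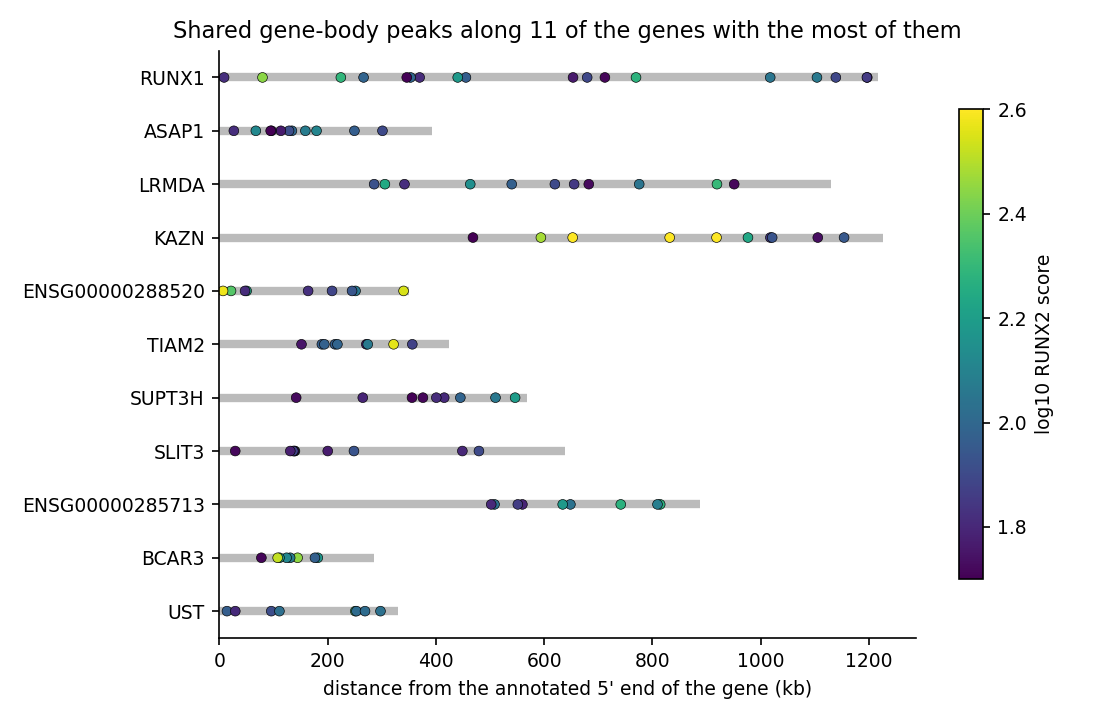
Position of each shared gene-body peak (points) along 11 of the 12 protein-coding genes with the most peaks (grey bars, x axis in kb from the annotated 5′ end of the gene). Colour is log10 of the RUNX2 score, cut at 1.7 and 2.6. RUNX1 peaks are spread over the whole gene, and LRMDA peaks begin 286 kb from its start.

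All 10 gene lists held host genes, those for bone and its signals among them. Hosts made up 11.1% of all protein-coding genes with eligible sequence. Their share was 9.59% at 50 to 100 kb, 21.7% at 100 to 200 kb and 33.6% at 200 to 400 kb. Host counts of the lists are to be read beside these shares. Of 24 osteoblast transcription factors with eligible sequence, 10 held a peak (41.7%, 22.1 to 63.4), with 8.02 peaks per Mb (5.02 to 12.1). The median gene length in this list was 131 kb. GLI2, an effector of hedgehog signalling, led with 5 peaks and scores of 76.11, 89.69, 95.51, 232.63 and 83.46. TCF7L2, a Wnt effector, and EBF1 held 3 each. SP7, the osteoblast factor downstream of RUNX2, held none over 5 kb from a TSS, as did SOX9, TWIST1 and VDR.

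In the bone matrix list, 8 of 28 genes held 11 peaks, or 4.62 per Mb (2.31 to 8.27). This interval included the 2.94 of all protein-coding genes and overlapped with that of the osteoblast factors. FN1, which encodes fibronectin, had 1 peak with a score of 335.45 in intron 20. ALPL, the alkaline phosphatase of mineralizing cells, had 1 with a score of 191.47 in intron 6 (chr1:21890421-21891551). The collagen gene COL5A2 and the fibrillin gene FBN1 held 2 each, whereas COL1A2, SPARC, IBSP and POSTN held none.

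Among signalling genes, the TGF-beta and BMP list had 12 hosts of 30 genes and 9.09 peaks per Mb (5.30 to 14.6). It included the receptors TGFBR3 (3 peaks, highest score 163.52) and ACVR1 (2 peaks, 107.0) and the transducer SMAD3 (2 peaks, 103.57). TGFBR1, BMPR2, SMAD1 and SMAD4 held none. The Wnt list had 11 hosts of 35 and 8.72 per Mb (5.53 to 13.1). It was led by the receptors ROR1, with 7 of the 23 peaks in the list (scores of 51.63 to 127.5), and ROR2, with 5 (76.14 to 306.47). CTNNB1, APC and GSK3B held none. All 5 ROR2 peaks and 6 of the 7 ROR1 peaks lay in the first intron, compared with 30.5% of all intronic gene-body peaks. How much of the eligible sequence of ROR1 and ROR2 lies in their first introns was not computed, so no preference can be read from these counts. The receptor tyrosine kinase list had 9 hosts of 34 and 6.11 per Mb (3.87 to 9.17). IGF1R and the ligand gene PDGFC held 5 peaks each, EPHB2 held 4 and EGFR 3, whereas FGFR1, PDGFRA, PDGFRB and MET held none.

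Integrin and focal adhesion genes had 14 hosts of 39 and 4.42 peaks per Mb (2.83 to 6.57), an interval that included the general level of 2.94. The integrin list was led by TLN2 (5 peaks), LPP (4) and PARVB (3, highest score 524.26), and among the integrins ITGA11 alone held a peak.

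The AP-1 and Hippo list had 6 hosts of 24 and 4.76 per Mb (2.18 to 9.05). FOSL2, a FOS family gene, held 3 peaks with scores of 56.96, 114.44 and 60.86. WWTR1, which encodes the Hippo effector TAZ, held 2. Chromatin regulators had 9 hosts of 38 and 4.76 per Mb (2.82 to 7.53). ARID1B, a subunit of a BAF remodelling complex, had a peak with a score of 634.47 in intron 2. KMT2A, a methyltransferase gene whose product acts with menin, held none.

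Long neuronal genes stood at the other end. The 52 genes for synapses and ion channels had a median length of 747 kb, and 12 of them held 24 peaks, or 0.606 per Mb (0.388 to 0.902). KCNMA1, a potassium channel gene, held 5 of these peaks and CACNA1C, a calcium channel gene, held 4. CSMD1, CNTNAP2, PTPRD and RBFOX1 held none. In all, 5 of the 10 lists had intervals wholly above the 2.94 per Mb of all protein-coding genes. This count is a description only, since the lists were chosen with earlier results of these data known. The intervals treat peaks in the same gene as independent, and the general level was not matched to the lists for gene length.

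**Figure D5:**
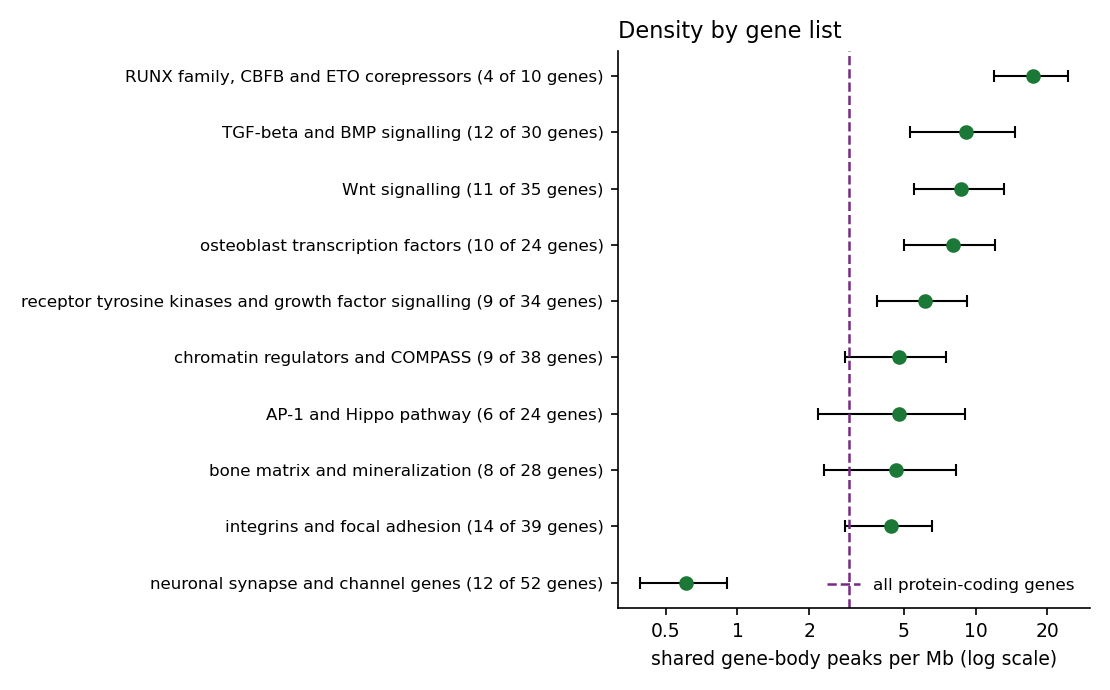
Shared gene-body peaks per Mb of eligible sequence (x axis, log scale; points with 95% intervals) for 10 gene lists, with the number of host genes of all genes with eligible sequence in parentheses. The dashed line marks all protein-coding genes at 2.94 per Mb, the RUNX list is highest at 17.4 and the neuronal list lowest at 0.606.

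The other hosts with many peaks were of varied function. ASAP1, which encodes a GTPase activator for Arf proteins, and LRMDA held 11 each. The ASAP1 density was 44.7 per Mb (22.3 to 80.1). KAZN held 10, of which 3 had scores above 400 (404.09, 448.53 and 415.78). SUPT3H, a subunit of a histone acetylase complex and the neighbour of RUNX2, held 9 with scores of 50.81 to 156.36. SLIT3, a secreted guidance ligand, and TIAM2 held 9 each. The unnamed genes ENSG00000288520 and ENSG00000285713 held 9 each. The first is annotated as a readthrough gene, and its peaks also lay in CNKSR3, IPCEF1 and OPRM1. BCAR3, an adaptor of adhesion signalling, and UST, a sulfotransferase gene, held 8 each, with highest scores of 328.01 and 216.82.

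Genes with little eligible sequence led by density among hosts with 3 or more peaks. ADCY7, an adenylyl cyclase gene, was 72.0 kb long but had only 0.0131 Mb of eligible sequence. It held 3 peaks within its first intron, which gave 228 per Mb (47.1 to 667). FOSL2 followed at 194, HTR1D at 146 and BAHCC1 at 117. The 3 BAHCC1 peaks lay side by side (chr17:79394655-79400327) and had the same CBFB partner (chr17:79392953-79400377). The last of them is the repeat-rich peak with the highest score. In STK40 the 3 peaks had scores of 125.67, 175.52 and 227.88, and density was 113 per Mb. NIBAN2 held 4 peaks (104 per Mb), with scores of up to 358.58. NFIX, a transcription factor gene, held 5 with a median score of 163 (94.8 per Mb), and PNPLA7 held 5 (83.9 per Mb).

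Density differed between chromosomes more than counting error would give. Chromosome 6 had 374 gene-body peaks, or 5.22 per Mb (4.70 to 5.77), against 2.75 over all. Chromosomes 17 (4.55) and 21 (4.49) followed, while X (0.849, 0.617 to 1.14) and 18 (0.892, 0.583 to 1.31) were lowest. On chromosome 6, density was 11.2 (8.35 to 14.7) from 150 to 160 Mb, where ENSG00000288520 and TIAM2 lie. It was 8.63 from 40 to 50 Mb, which holds RUNX2 and SUPT3H. No peak was found from 60 to 70 Mb, where the upper bound was 0.983 per Mb. All CBFB peaks of the same position class varied alike, with 13.3 per Mb on chromosome 6, 3.36 on chromosome 18, 3.20 on X and 8.01 over all. DNA copy number was not measured here, and its part in these densities was not tested. Without chromosome 6, the RUNX list was at 16.6 per Mb (10.9 to 24.3) and the osteoblast factors at 8.92 (5.52 to 13.6), against 2.78 over all protein-coding genes.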

How the data were processed

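The 2 peak lists were made by the authors from 1 RUNX2 and 1 CBFB ChIP-seq library. The submitters' processing notes name CASAVA 1.8.2, MACS 1.4.1 and hg19. The aligner, the calling limit and the use of the input were not given in the sources used here. Column 5 of each deposited file held a score per peak, which was read as the MACS score (10 times the negative log10 of the p-value) from its range and the peak names. Such a score depends on depth, so levels were not compared between lists.

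Peaks overlapped when they shared at least 1 bp, and of several CBFB peaks the one with the highest score was the partner. Genes were GENCODE release 44 lifted to GRCh37 (63827 genes on chromosomes 1 to 22 and X). The 15 RUNX2 and 56 CBFB peaks on other sequences were left out. Eligible sequence was all gene sequence over 5 kb from a TSS. Intron numbers used a basic-tagged transcript, then the longest. Motifs were searched on both strands of GRCh37. The gene sets were written from general knowledge, and members, lists and rules were chosen with earlier results of these data known. Named genes were the 10 highest-scoring peaks, the 12 coding genes with the most peaks, the 8 densest with 3 or more, up to 5 leaders of each list, RUNX2 and CBFB, and the peaks at the 5 kb limit. Some genes, a list and some sequences are not reported here. Sequences of list leaders, list genes named as holding no peak and a few further list genes (such as ITGA11) were chosen after their values were seen. Steps were tested on simulated peaks. Analyses used Python 3.11.15, numpy 2.4.6, pandas 2.3.3, scipy 1.17.1 and matplotlib 3.10.9. Alternatives covered the overlap, score limit, TSS distance, gene set, transcript and motif.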

Additional observations from a re-analysis of the deposited data

How the results depend on the processing

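Of 41 alternatives, 35 were set out at the start and 6 were added after seeing the data. No direction was reversed. The number of gene-body peaks was 1633 when RUNX2 peaks had to reach the median score of their list, and 2237 to 4598 under the other alternatives. The share with a RUNX core near the midpoint was 54.2% with midpoints within 200 bp, 53.9% with CBFB peaks at or above the median of their list, 58.8% with C allowed at base 3 of the core, 28.6% for TGTGGTT, 29.1% within 50 bp, 87.3% in the whole peak and, among those added, 61.5% around a point 75 bp below the midpoint. Requiring an overlap of 50% of each of both peaks gave a Spearman correlation of 0.654 and a share of host genes with 2 or more peaks of 29.9%, against 33.9%. Pearson's r of log10 scores was 0.660. The share in introns was 93.2% over 1 kb from a TSS and 96.5% over 10 kb. Peaks per Mb were 2.90 over 1 kb, 2.56 over 10 kb, 2.98 with protein-coding genes and their TSS only, and 2.59 without chromosome 6. Why these values moved was not tested beyond the change of peaks or letters that each setting makes. The other alternatives stayed within 1.5 times a count or within the 95% interval of a value. Without chromosome 6, 6 gene lists were wholly above all protein-coding genes instead of 5, the integrin list being the one added. No paired analysis was possible because there was only 1 library for each antibody. Depth limits which weak peaks were called, and its size is unknown.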
